A study of Mus musculus with 4 samples.

Results

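E proteins are basic helix-loop-helix transcription factors, and Id proteins are their natural inhibitors. The E proteins Tcf3 (which encodes E12 and E47), Tcf4 (E2-2) and Tcf12 (HEB) bind DNA as pairs at a short sequence called an E-box. Id1, Id2 and Id3 carry the pairing domain but lack the basic stretch that contacts DNA, so an E protein held by an Id protein cannot bind. The balance between them is best known from lymphocytes and dendritic cells, where Tcf4 drives the plasmacytoid type of dendritic cell and Id2 is needed for other dendritic cells. Id1, Id2 and Id3 are also well-known targets of bone morphogenetic proteins through SMAD factors.

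The accessible chromatin assigned to these 6 genes was followed in mouse bone marrow-derived macrophages by ATAC-seq, in which a transposase cuts open chromatin and the cuts are mapped as peaks. Peaks of all 4 libraries were merged into 1 region wherever they overlapped by at least 1 bp, and a region was selected on the gene name that its highest peak carried, which was the gene with the nearest annotated start site. In this way 50 of 60710 regions were chosen. The Peak Score entered only through this choice of the highest peak, and it decided no membership here, since 0 of the 50 regions held peaks naming more than 1 gene and 0 regions of other genes held a peak naming one of the 6.

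All macrophages were wild type, from C57BL/6 mice of 8 to 12 weeks, and were grown from bone marrow for 6 days with medium from L929 cells as the source of M-CSF, the growth factor of macrophages. Control cells (2 libraries) received nothing further, and IL-4 cells (2 libraries) received interleukin-4 at 20 ng/ml for 1 h, the cytokine that turns macrophages to the alternative type. The comparison asked where 1 h of IL-4 changed chromatin accessibility. The study's methods call the 2 libraries of a group biological replicates, and whether 1 animal gave several libraries was not stated.

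The value of a peak is its Peak Score, read here as a −log10 q-value and called its height: it measures the evidence for the peak against the library's own background and grows with sequencing depth, so a log2 change of height is not a fold change of accessibility. The libraries held 39462 to 45250 peaks, and over the 25442 regions that every library shared the median height was 12.52 and 11.01 in the controls and 11.14 and 8.86 with IL-4, IL-4 replicate 2 being the lowest. Before any test the log2 heights were therefore brought to 1 common distribution (quantile normalization). A start-site region within 1 kb was present in all 4 libraries at 5 of 8 macrophage marker genes but was missing at Adgre1, Csf1r and Spi1. The markers of plasmacytoid dendritic cells, T cells and neutrophils had 0 of 4 each, those of B cells 1 of 4 (Ebf1) and those of fibroblasts 1 of 4, a peak at Pdgfra with a height of 5.44 in control replicate 1 and none elsewhere. The summed heights over the macrophage markers were 76.36 and 52.44 in the controls and 56.34 and 60.22 with IL-4.

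The sequences below show what the DNA in and beside the open regions of these genes looks like and where E-boxes stand in it. They were taken from RefSeq for the mm10 assembly (GRCm38.p6), and promoter entries matched 4 of the 6 genes. Capitals mark matches, on either strand, to the E-box CANNTG, to the STAT-type repeats TTCNNNNGAA (the spacing that STAT6, the IL-4 factor, prefers) and TTCNNNGAA (the spacing of other STATs), to the AP-1 letters TGACTCA or TGAGTCA, and to the PU.1 letters GAGGAAGT. CAGCTG and CAGGTG are kinds of CANNTG and are counted in it. A match is a description of letters, not a bound site.

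The 4 stretches at or near start sites are shown first, to set the Id promoters beside upstream stretches of Tcf3 and Tcf12. The Id2 promoter is the 250 bases before the start at chr12:25096093-25096342 (minus strand) and the Id3 promoter those at chr4:136143572-136143821 (plus strand), both wholly inside a region. For Tcf3 and Tcf12 only bases upstream of every annotated exon are given, at chr10:80433977-80434274 and chr9:72111894-72112069 (both minus strand).
Id2 promoter: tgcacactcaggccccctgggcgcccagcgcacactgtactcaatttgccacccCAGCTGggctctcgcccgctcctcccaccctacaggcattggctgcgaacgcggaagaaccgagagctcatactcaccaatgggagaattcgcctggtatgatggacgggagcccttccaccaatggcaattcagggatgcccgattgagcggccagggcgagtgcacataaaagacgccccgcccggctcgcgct
Id3 promoter: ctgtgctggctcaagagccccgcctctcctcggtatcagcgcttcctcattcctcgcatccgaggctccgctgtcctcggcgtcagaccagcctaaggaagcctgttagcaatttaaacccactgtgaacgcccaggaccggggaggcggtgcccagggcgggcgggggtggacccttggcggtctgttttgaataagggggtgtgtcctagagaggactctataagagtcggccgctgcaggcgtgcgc
Tcf3 upstream stretch: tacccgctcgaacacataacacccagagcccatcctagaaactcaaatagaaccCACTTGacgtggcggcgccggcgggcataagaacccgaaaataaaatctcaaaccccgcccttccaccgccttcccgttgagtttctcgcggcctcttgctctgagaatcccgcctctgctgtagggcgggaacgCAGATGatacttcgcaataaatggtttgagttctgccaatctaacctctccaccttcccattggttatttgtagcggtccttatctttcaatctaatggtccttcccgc
Tcf12 upstream stretch: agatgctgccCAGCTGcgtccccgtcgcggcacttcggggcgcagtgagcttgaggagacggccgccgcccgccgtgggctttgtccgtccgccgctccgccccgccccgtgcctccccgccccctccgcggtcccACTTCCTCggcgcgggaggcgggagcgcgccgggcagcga
The Id2 promoter held 1 CAGCTG E-box and no other marked match, and the Id3 promoter held none of the letters searched. The Tcf3 stretch held 2 E-boxes, and the Tcf12 stretch held 1 CAGCTG and 1 PU.1 match. Only 141 of the 176 bases of the Tcf12 stretch lay inside a region. Its PU.1 match lay inside, whereas its CAGCTG lay outside, farther upstream. The GC share was 62.8% in each Id promoter, 52.0% in the Tcf3 stretch and 78.4% in the Tcf12 stretch. Among 32851 RefSeq promoter windows of 250 bases, 66.2% held CANNTG and 13.0% held CAGCTG. These shares match the Id promoters in length and place. The Tcf3 and Tcf12 stretches differ from such windows, with 298 and 176 bases that do not reach the start site.

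The next 5 stretches, on the plus strand, are whole regions away from the start sites that differed in height or presence between libraries and are described further on. They lie at chr12:25098811-25099029 (upstream of Id2), chr12:25092366-25092497 (downstream of Id2), chr12:25054620-25054873 (the highest distal Id2 region), chr4:136123493-136123668 (upstream of Id3) and chr9:72085891-72086120 (intron 3 of Tcf12).
Id2 upstream: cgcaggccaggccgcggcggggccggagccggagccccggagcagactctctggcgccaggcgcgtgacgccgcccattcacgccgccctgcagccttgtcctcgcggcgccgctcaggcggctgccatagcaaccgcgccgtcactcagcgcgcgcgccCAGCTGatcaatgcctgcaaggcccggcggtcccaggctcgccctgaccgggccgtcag
Id2 downstream: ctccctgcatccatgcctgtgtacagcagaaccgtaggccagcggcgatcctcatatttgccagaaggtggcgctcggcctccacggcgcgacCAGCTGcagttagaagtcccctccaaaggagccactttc
Id2 distal: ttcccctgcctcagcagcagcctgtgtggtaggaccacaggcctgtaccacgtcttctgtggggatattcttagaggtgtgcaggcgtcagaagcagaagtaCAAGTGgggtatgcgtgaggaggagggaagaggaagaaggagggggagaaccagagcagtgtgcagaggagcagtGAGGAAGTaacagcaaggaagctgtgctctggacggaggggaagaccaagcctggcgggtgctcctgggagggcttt
Id3 upstream: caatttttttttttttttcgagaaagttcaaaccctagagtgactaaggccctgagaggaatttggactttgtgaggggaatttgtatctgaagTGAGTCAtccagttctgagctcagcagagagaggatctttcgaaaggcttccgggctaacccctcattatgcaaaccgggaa
Tcf12 intron: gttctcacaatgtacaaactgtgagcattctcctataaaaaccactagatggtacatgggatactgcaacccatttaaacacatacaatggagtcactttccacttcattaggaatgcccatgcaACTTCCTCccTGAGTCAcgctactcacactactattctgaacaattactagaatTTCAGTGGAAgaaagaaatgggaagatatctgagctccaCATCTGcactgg
Both Id2 regions close to the gene held 1 CAGCTG, as its promoter did, whereas the distal Id2 region held another E-box and 1 PU.1 match. The Id3 region held 1 AP-1 match and no E-box. The Tcf12 intron held 1 match each to the STAT6 spacing, AP-1 and PU.1, and 1 E-box.

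The 50 regions fell very unequally over the 6 genes. In the mm10 annotation of RefSeq, Tcf3 spans chr10:80409541-80433976, Tcf4 chr18:69343429-69687967, Tcf12 chr9:71844252-72111893, Id1 chr2:152736251-152737410, Id2 chr12:25093799-25096092 and Id3 chr4:136143822-136145392. Tcf4 had 26 regions, Tcf12 9, Id2 and Id3 5 each, Id1 4 and Tcf3 1. The 2 genes with the most regions were also the longest, Tcf4 at 344.5 kb and Tcf12 at 267.6 kb. Tcf3, at 24.4 kb, had fewer regions than each Id gene, at 1.2 to 2.3 kb. A link with gene length was not tested. Introns held 22 of the 36 E protein regions but 1 of the 14 Id regions, which were mostly intergenic (9 of 14). By kind the 50 regions resembled the whole set, with 20.0% annotated as promoter, 46.0% in introns and 34.0% intergenic, against 18.8%, 40.2% and 35.8% of all regions. Their median length was 228 bp, against 209 bp for all regions.

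A peak was present in all 4 libraries at 20 of the 50 regions (40.0%, against 41.9% of all regions), at 8 of 14 Id regions and 12 of 36 E protein regions. The libraries had a peak at 35 and 37 of the 50 regions in the controls and at 36 and 33 with IL-4. In the controls and with IL-4 alike, a region with a peak in every library lay over at least 1 curated start site of Tcf3, Tcf4, Id1, Id2 and Id3, whereas no region over a Tcf12 start site had a peak in all 4.

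**Figure D1:**
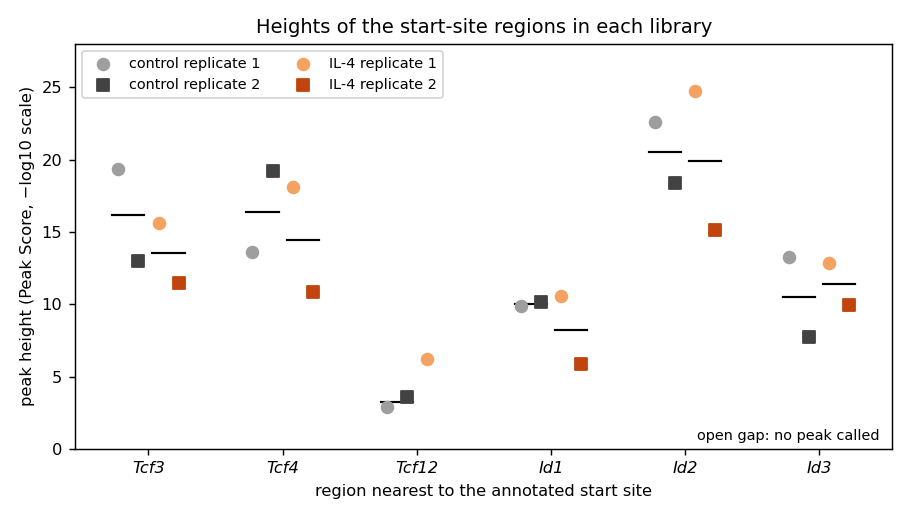
Peak height (Peak Score, −log10 scale) of the region nearest to the annotated start site of each gene. Each point is 1 library and each black line the mean of a group's 2 libraries. Id2 is the highest on average in both groups, the groups overlap at the 5 genes with a peak in every library, and Tcf12 has no peak in IL-4 replicate 2.

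At the start sites of the E proteins Tcf3 and Tcf4, heights were moderate. Tcf4, the E protein of plasmacytoid dendritic cells, had heights of 13.61 and 19.2 in the controls and 18.1 and 10.84 with IL-4 in the region 111 bp upstream of its start. Tcf3 had heights of 19.34 and 12.98 in the controls and 15.65 and 11.44 with IL-4. In both genes the groups overlapped. The normalized log2 change was 0.01 (SE 0.354) at Tcf4 and −0.03 (SE 0.355) at Tcf3, and among 7920 promoter regions with a peak in all 4 libraries these start sites stood at the 61.4 and 60.4 percentile in the controls and at the 60.6 and 57.9 percentile with IL-4.

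Tcf12 had the lowest start-site heights of the 6 genes in the controls. The region over its upstream start site, 6 bp from it, had heights of 2.86 and 3.57 in the controls and 6.2 in IL-4 replicate 1, and no peak in IL-4 replicate 2, so no change was fitted. RefSeq gives Tcf12 3 curated start sites, and all 3 lay inside a region that had a peak in 3 of the 4 libraries. Tcf4 also has 3: the region covered the first, whereas the others lay 1105 and 1544 bp from the nearest region. The 17 curated Tcf3 transcripts share 1 start site, which was covered.

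Among the inhibitors, Id2 had the highest mean height at its start site of all 6 genes. Its heights were 22.63 and 18.39 in the controls and 24.73 and 15.14 with IL-4, a mean of 20.5 ± 3.00 (SD, n = 2) and 19.9 ± 6.78 (SD, n = 2), and its place among promoters was the 75.7 percentile in the controls and the 78.9 percentile with IL-4. Id3 had heights of 13.25 and 7.74 in the controls and 12.82 and 9.92 with IL-4. Id1 had heights of 9.88 and 10.17 in the controls and 10.59 and 5.85 with IL-4. The heights of the groups overlapped at all 3 start sites, although at Id3 both IL-4 values were above both controls after normalization. The log2 changes were 0.12 (SE 0.291) at Id2, 0.38 (SE 0.430) at Id3 and −0.11 (SE 0.474) at Id1, none of them past the test.

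The order of mean heights was Id2, Tcf4, Tcf3, Id3 and Id1 in the controls and with IL-4, leaving out Tcf12. The ranges of no neighbours in this order were separate in either group, so that only the order of means, not the rank of any gene over the next, can be given. Across the 4 libraries, the promoters of other genes with heights most like a start site here were those of Cbfb and Dopey2 for Id2 (Euclidean distances of 0.062 and 0.108 over the 4 normalized log2 heights), Zfp874b and Tufm for Id1 (0.099 and 0.142) and Pkd2l2 and Ccdc157 for Id3 (0.146 and 0.156). For Tcf3 they were Rtel1 and Lilra6 (0.114 and 0.143) and for Tcf4 they were Snupn and Tab2 (0.153 and 0.158). With only 4 libraries, such likeness describes heights alone.

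Away from the start sites, 1 region changed past the test. In intron 6 of Tcf4, 202.3 kb downstream of the start (mm10, chr18:69547808-69548131), the height was 35.59 and 35.07 in the controls and 16.47 and 7.86 with IL-4. Both control values lay above both IL-4 values, and the control peaks stood at the 98.6 and 99 percentile of their libraries' regions, against the 83.2 and 59.1 percentile with IL-4. The normalized log2 height fell by 1.45 (SE 0.290, 95% interval −2.04 to −0.87; limma, Benjamini-Hochberg adjusted p = 0.0303 over 25442 regions). The gene family was proposed with this region's decrease already known, so that it is given as a description. In bulk libraries such as these, fewer cells with the site open and less opening in each cell cannot be told apart. With 1 library left out the log2 change lay between −1.81 and −1.07 and the adjusted p by limma was 0.143 without control replicate 1, 0.219 without control replicate 2, 0.687 without IL-4 replicate 1 and 0.801 without IL-4 replicate 2, the library of the lowest heights. The adjusted p was 0.523 without the variance trend and 0.0703 when a peak had to cover 50% of the region, so the call rested on the full set of libraries and on these settings while the direction did not. The 300-base window at its centre held 2 E-boxes and 1 AP-1 match and no match to either STAT spacing.

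**Figure D2:**
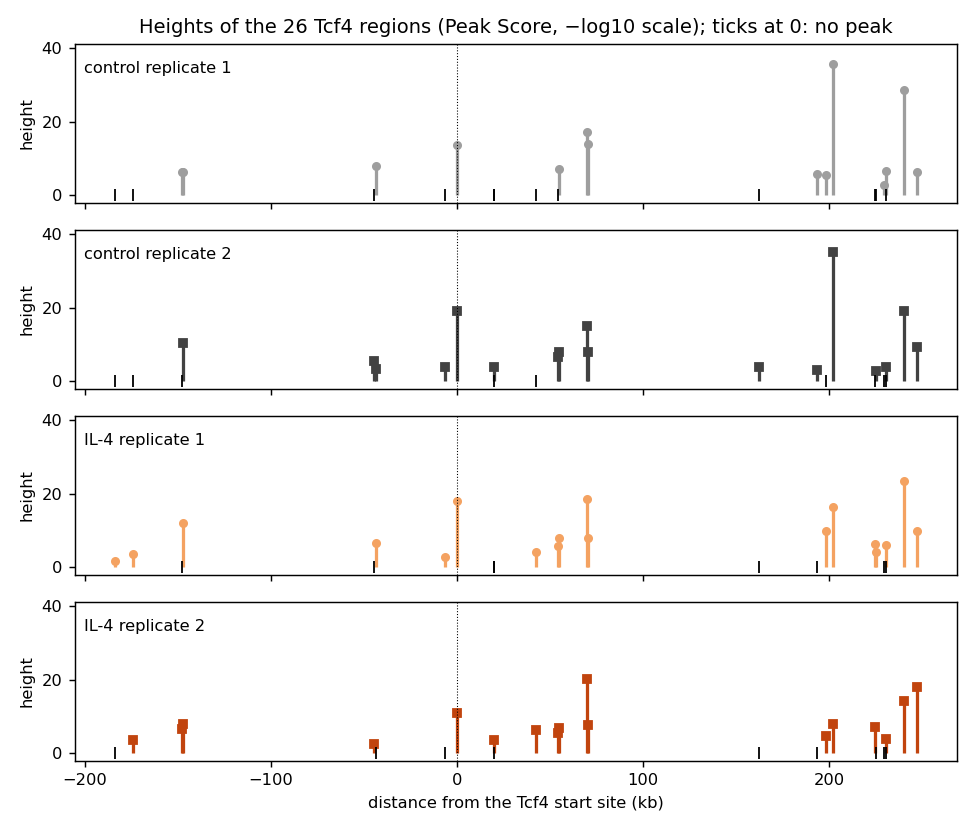
Heights of the 26 Tcf4 regions (vertical axis, Peak Score on a −log10 scale) by distance from the Tcf4 start site in kb (horizontal axis), with 1 panel per library and a short tick at 0 where a region had no peak. The tallest peak of both control panels, 202.3 kb downstream, is lower in both IL-4 panels, and the region 240.5 kb downstream is taller than it there.

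Further regions of the Tcf4 introns moved in either direction, and none of those described here passed the test. The region 240.5 kb downstream, in intron 8, had heights of 28.48 and 19.18 in the controls and 23.3 and 14.17 with IL-4, and the groups overlapped (log2 change −0.18, SE 0.285). In intron 3, the region 70.0 kb downstream had heights of 17.31 and 14.93 in the controls and 18.61 and 20.03 with IL-4, both IL-4 values above both controls (log2 change 0.46, SE 0.316, adjusted p = 0.756 by limma). Its neighbour 70.5 kb downstream had heights of 13.85 and 8.07 in the controls and 8.02 and 7.75 with IL-4, both controls above both IL-4 values before normalization but not after it (log2 change −0.18, SE 0.468). These 3 regions were named after their values were seen.

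The farthest Tcf4 region, 247.6 kb downstream in intron 8 (chr18:69593196-69593684), had 1 of the 2 largest increases of the 20 tested regions, nearly equal to that of an Id2 region given further on. Its heights were 6.23 and 9.26 in the controls and 9.92 and 17.89 with IL-4, and the groups did not overlap. The log2 change was 1.05 (SE 0.464, 95% interval 0.12 to 1.98), which did not pass the test (adjusted p = 0.551 by limma). With 1 library left out it ran from 0.48, without IL-4 replicate 2, to 1.60. Of the 8 Tcf4 regions tested, 5 had a change above 0 and 3 below.

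In later introns of Tcf4 and in Tcf12, 5 further regions lay inside the gene but were named by the files after another gene with a nearer start, Ccdc68 or Mir378, and are not counted among the 50. The one in intron 14 of Tcf4 had heights of 22.81 and 20.65 in the controls and 12.34 and 12.28 with IL-4. Both control values were above both IL-4 values before normalization, as in 29.3% of all tested regions. The log2 change of −0.61 (SE 0.328) did not pass the test (adjusted p = 0.635 by limma). A region in intron 15 had heights of 6.23 and 13.95 in the controls and 10.18 and 5.31 with IL-4. There the groups overlapped (log2 change −0.09, SE 0.507). The regions of this paragraph fall outside the naming rules given below. In intron 5 of Tcf12, the region assigned to Mir378 had heights of 12.81 and 7.56 in the controls and 8.33 and 4.29 with IL-4, and the groups overlapped (log2 change −0.50, SE 0.506).

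By the mean over the libraries with a peak, Tcf12 had its highest distal region in intron 3, 25.2 kb downstream of its start. It is the stretch printed above with the STAT6 spacing. Its heights were 4.56 in control replicate 1, 15.04 in IL-4 replicate 1 and 4.46 in IL-4 replicate 2, with no peak in control replicate 2. The tall value thus came from 1 library, and the other IL-4 library was at the level of the control. The missing peak did not lower the mean. A region 22.1 kb downstream, also in intron 3, had a peak in all 4 libraries. Its heights were 12.7 and 3.78 in the controls and 5.2 and 4.55 with IL-4. The largest Tcf12 decrease was 488 bp upstream of its internal start site, where heights were 8.18 and 9.82 in the controls and 5.47 and 5.75 with IL-4. These groups did not overlap before normalization but did after it (log2 change −0.41, SE 0.516, adjusted p = 0.894 by limma).

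The 2 largest increases of the inhibitors lay beside Id2 and Id1. The region 2.8 kb upstream of Id2, printed above with its CAGCTG E-box, had heights of 5.87 and 3.78 in the controls and 11.08 and 6.27 with IL-4. The region 5.3 kb downstream of Id1 (chr2:152741459-152741984, intergenic) had heights of 6.22 and 5.59 in the controls and 12.71 and 6.87 with IL-4. In both, each IL-4 value was above each control value, and IL-4 replicate 1 was the taller of the 2. The log2 changes were 1.04 (SE 0.531, 95% interval −0.02 to 2.11) at Id2 and 0.92 (SE 0.508, 95% interval −0.10 to 1.94) at Id1, and neither passed the test (adjusted p = 0.613 and 0.647 by limma).

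The other 3 Id regions with a fitted change had log2 changes below 0, none past the test. The highest distal Id2 region, 41.3 kb downstream and in intron 31 of another gene, had heights of 14.42 and 15.87 in the controls and 16.67 and 6.38 with IL-4, so that the IL-4 libraries lay on either side of the controls (log2 change −0.32, SE 0.402). The highest distal Id3 region, 26.6 kb upstream (chr4:136117068-136117478, intergenic), had heights of 10.07 and 12.0 in the controls and 7.87 and 6.43 with IL-4, and the groups did not overlap (log2 change −0.38, SE 0.474, adjusted p = 0.892 by limma). The Id1 region 1041 bp upstream had heights of 6.5 and 15.19 in the controls and 8.02 and 5.92 with IL-4, its tall value being that of control replicate 2.

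**Figure D3:**
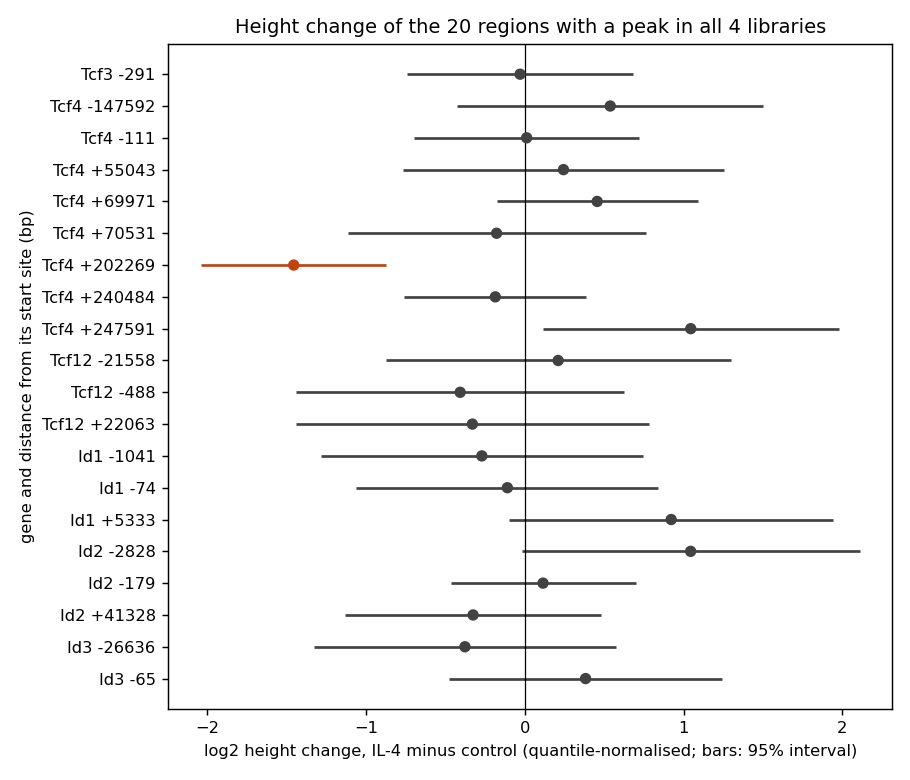
Log2 height change (IL-4 minus control, quantile-normalized) of the 20 regions that every library shared, named by gene and distance from the start site in bp. Points are limma estimates, lines their 95% intervals, and the coloured point is the region with an adjusted p under 0.05, the Tcf4 region at −1.45. Changes range from −1.45 to 1.05, and of the other intervals only that of the Tcf4 region 247.6 kb downstream, 0.12 to 1.98, lies off 0.

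Over the 20 regions tested, the median log2 change was −0.008, against −0.001 over all 25442 regions, with 10 changes above 0 and 10 below. By limma 0 of 20 rose, against 0.0157% of all tested regions, and 1 of 20 fell, against 0.00786%. The region that fell was known when the family was proposed, so its share is no result about the family. It also enters the counts that follow. At an unadjusted p under 0.05 there were 2 of 20, both at Tcf4, against 8.28% of all tested regions. The unnormalized heights of the groups did not overlap in 4 of 20 with IL-4 higher, against 8.83%, and in 4 of 20 with IL-4 lower, against 29.3%. After normalization these were 6 of 20 higher, against 19.2%, and 2 of 20 lower, against 18.6%. The plot of the height changes shows the same spread, with the Tcf4 region apart from the others on the lower side.

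Regions with a peak in each library of 1 group and none in the other group were few and low. There were 3 IL-4-only regions of 50, against 2.53% of all regions, and 3 control-only regions, against 4.33%. The IL-4-only regions all belonged to Tcf4, at 174.2 kb upstream (3.73 in both libraries), 42.4 kb downstream (4.07 and 6.43) and 224.7 kb downstream (6.3 and 7.2). Only the last of these held a match to the STAT6 spacing in its central window, as did the windows of 9.0% of all regions. The control-only regions were at Id2, 3.6 kb downstream (5.67 and 5.42), at Id3, 20.2 kb upstream (5.79 and 6.03), and at Tcf4, 193.8 kb downstream (5.88 and 2.99). All 6 lay at 7.2 or below, and at such heights the presence or absence of a call carries no measure of the size of a difference.

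**Figure D4:**
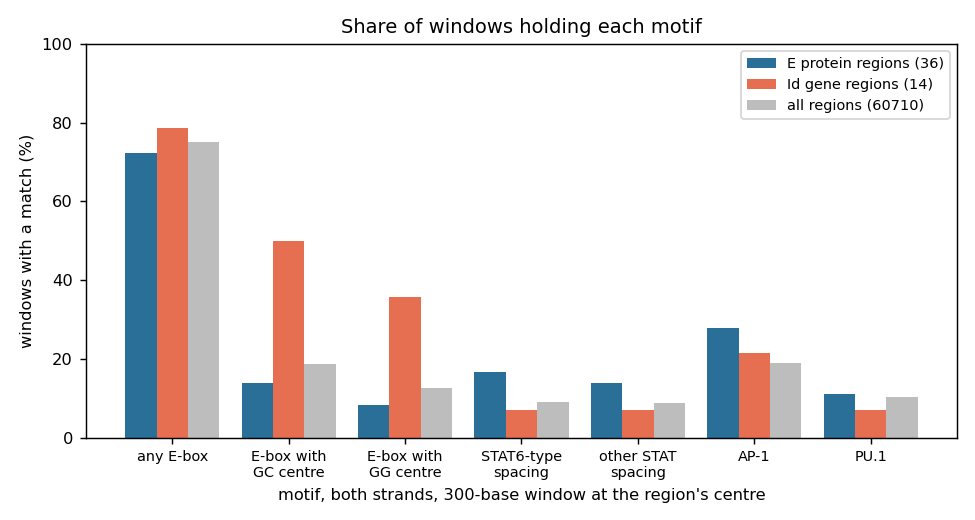
Share of 300-base windows (vertical axis, percent) that hold each motif at least once on either strand, for the 36 E protein regions, the 14 Id regions and all 60710 regions. Any E-box is about as common in the 3 sets, and the bars that stand apart are those of the Id regions for the E-boxes with a GC or GG centre.

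E-boxes, the sequence that E proteins bind, were common in the regions of these genes and elsewhere. In 300-base windows at the centres of the regions, CANNTG was found in 74.0% of the 50, against 75.2% of all regions. CAGCTG was found in the windows of 7 of the 14 Id regions (50.0%) and 5 of the 36 E protein regions (13.9%), against 18.7% of all windows. CAGGTG was found in the windows of 5 of 14 (35.7%) and 3 of 36 (8.3%), against 12.7%. These are descriptions of few windows and no test was made. A window can reach past its region. The CAGGTG matches at the Id2 regions 2.8 kb upstream and 3.6 kb downstream lay outside the region, as did that at the Id1 region 700 bp upstream. The CAGCTG matches at the Id3 region 3.3 kb upstream were not wholly inside it either. The STAT6 spacing was found in 7 of 50 (14.0%), against 9.0%, the other STAT spacing in 6 of 50 (12.0%), against 8.9%, AP-1 in 13 of 50 (26.0%), against 18.9%, and PU.1 in 5 of 50 (10.0%), against 10.4%.

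The wider pathway was described by lists of known partners and inducers. Of 16 genes for partners and relatives of the E proteins, among them Id4, Tal1, Lyl1, Lmo2 and the bHLH repressors Bhlhe40 and Bhlhe41, all had a region. Of 31 tested regions 0 rose and 0 fell by limma, against 0.0157% and 0.00786% of all tested regions. At an unadjusted p under 0.05 there were 0, against 8.28%. Their log2 changes had a median of 0.01 and ran from −0.89 at Lmo2, a bridging protein of E protein complexes, to 1.06 at Lyl1, a partner bHLH factor. Of 14 genes for bone morphogenetic protein signals and SMADs, 12 had a region, and of 37 tested regions 0 rose and 0 fell, with 5 at an unadjusted p under 0.05, against 8.28% of all tested regions. Here the median log2 change was 0.20, against −0.001 over all tested regions, with −1.20 at Smad6, an inhibitory SMAD, as the lowest and 1.27 at Bmp2, a ligand, as the highest.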

How the data were processed

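ATAC-seq peak lists of 4 libraries were used, 2 of control and 2 of IL-4 macrophages, grouped by GEO's treatment labels. Per the study's methods and the submitters' processing notes, the authors aligned reads to mm10 with BWA 0.7.10, called peaks per library with MACS2 2.0.10 (q-value cut-off 0.01), removed artefact regions and annotated peaks with HOMER 4.2. The authors deposited a Peak Score for each peak, made by their peak caller and read here from its values as a −log10 q-value, since the files do not state its unit. However, 1262 peaks scored under 2, which is below the cut-off of the methods. Reads were not used, so depth is unknown, no interval or floor from counts is given, and the test of read counts in the methods was not run.

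Mitochondrial peaks were left out and the rest merged where they shared at least 1 bp, and a library's height in a region was its highest score there. Heights were compared with limma 3.58.1 in R 4.3.3 (log2 heights, quantile normalization, moderated test with a variance trend, Benjamini-Hochberg over all 25442 regions with a peak in every library, threshold 0.05). Regions missing in a library enter as presence or absence only. The steps were tested on simulated data. Named regions were, for each gene, the one nearest its start and the highest beyond 1 kb by the mean over libraries with a peak. Also named were every region found in 1 group only, the 3 largest changes each way and all past the threshold. Changes are IL-4 minus control. Distances are those of the files, and 127 of 146 peaks had the RefSeq distance within 2 bp, the largest difference being 23 bp. The members and lists were chosen with earlier results of these data known. Alternatives covered normalization, the variance trend, the regions tested, score minimums, merging distance, cover, gene naming, the replicate block and each library left out.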

Additional observations from a re-analysis of the deposited data

How the results depend on the processing

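The count of regions that fell after IL-4 (1, at Tcf4) was 0 without the variance trend and 0 when a peak had to cover 50% of its region. It was also 0 without each single library, where the lone library of a group is assumed to vary like the others and the regions tested change. The count that rose was 0 under every alternative run, leaving out each library included. With peaks above the pooled median score there were 25 regions in place of 50 and 0 IL-4-only regions in place of 3. Control-only regions were 5 in place of 3 under the cover rule. With 1 library left out, the regions numbered 47 to 49, the IL-4-only regions 4 to 6 (6 without control replicate 1 and 6 without IL-4 replicate 1) and the control-only regions 3 to 9 (7 without control replicate 1, 5 without control replicate 2 and 9 without IL-4 replicate 1), since presence then rests on a single library of a group.

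The log2 change at the Tcf4 intron 6 region kept its direction in all alternatives. Among named regions, changes near 0 turned direction. So did 2 larger ones, −0.27 at the Id1 region 1041 bp upstream and −0.325 at the distal Id2 region. Without normalization the start site of Tcf4 was at −0.21 and that of Id2 at −0.076, and above the pooled median score the start site of Tcf4 was at −0.027. Leaving out a library, the values ran from −0.24 to 0.18 at the Tcf3 start, −0.34 to 0.36 at the Tcf4 start, −0.36 to 0.15 at the Id1 start, −0.08 to 0.30 at the Id2 start, −1.01 to 0.41 at the Id1 region 1041 bp upstream and −0.84 to 0.20 at the distal Id2 region. The causes were not tested.

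The labels link the libraries of the groups only by replicate number, and whether they were paired was not stated. Over 25442 regions the differences of replicate 2 minus 1 in the groups correlated with r = 0.0068 and rho = 0.0064. No pairing was thus visible in the heights, which cannot tell whether animals were shared. With the replicate block 0 of the regions rose and 1 fell, as without it, and over all regions 11 rose and 3 fell, against 4 and 2. With 2 libraries a group, no reads and only called peaks, regions low in one group are measured poorly, and changes of the size of the standard errors given were not detectable.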
